A study of Capra hircus with 3 samples.

Results

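Intergenic loci without a gene name, assembled from the mammary gland RNA of lactating dairy goats, are described here by their abundance, span and stage ratios. A locus was included if the deposited expression table gave it an assembly number and no gene ID, if it spanned 400 nt or more, and if more than 10 kb separated it from every row with a gene ID on the same scaffold. This rule selected 16692 of the 50041 rows, or 33.4% of all rows and 48.0% of the 34764 rows without a gene ID. It uses no FPKM value, but it is not independent of expression. A locus without a gene ID has a row only if reads assembled it, and the distance is to gene rows of the same expression table. Mammary gland was sampled from 5 Laoshan dairy goats, 4 years old and in the third lactation, at 10 days (early), 90 days (peak) and 210 days (late) after parturition. The RNA of the 5 goats was pooled at each stage, and 1 strand-specific library was sequenced per stage. Abundance was given as FPKM (fragment counts scaled to transcript length and to the size of the library), which is a value per length. With 1 pooled library per stage, the spread between goats was not measured, no p-value is given, and each ratio between stages compares 2 libraries.

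Long noncoding RNAs (lncRNAs) are transcripts well above the size of small RNAs and with no evident protein product, and those transcribed between genes are called intergenic lncRNAs or lincRNAs. They are typically less abundant than mRNAs and often expressed in few tissues, and a small number are very abundant in the nucleus. Unannotated intergenic loci of an assembly can also hold enhancer transcripts, unannotated exons of known genes or pieces of unspliced RNA, and the table gave neither exons nor coding potential to separate these classes. For this reason the loci are called distant intergenic loci here and not lncRNAs. No genome of the assembly that holds these scaffolds was used, so no sequence is shown and the loci are given by scaffold, start and end. The methods name goat reference genomes, and the expression table does not say to which assembly its scaffolds belong.

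Rows of all classes were above 0 FPKM in 48362 to 49395 of 50041 cases per library, and a single row took 29.9 to 46.0% of the FPKM sum. Reads per locus were not analysed here, and without them an FPKM carries no counting error. Markers of the secretory epithelium were present in all libraries, with CSN3 (kappa casein) at 25445, 3989 and 27391 FPKM in the early-, peak- and late-labelled libraries, as milk-secreting tissue has them. LALBA (alpha lactalbumin) was listed at 0 in the late-labelled library, against 70053 and 15214 FPKM in the early- and peak-labelled ones. The leukocyte markers PTPRC, CD3E and CD68 summed to 21.1, 43.7 and 11.6 FPKM in the same order, and CD3E was listed at 0 in the first 2 of these libraries. Between the peak- and late-labelled libraries, most annotated lncRNA genes ran opposite to the direction in the study's own lncRNA table, where 20 of 148 ran the same way. Between the early- and peak-labelled libraries 36 of 67 ran the same way, and between the early- and late-labelled ones 58 of 135. The names of the libraries are therefore those of their labels.

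The distant intergenic loci lay on 354 scaffolds, with a median of 19 and at most 311 loci per scaffold. The gap to the nearest row with a gene ID had a median of 37951 bases (interquartile range 19349 to 87462). It exceeded 100 kb for 3723 loci (22.3%) and 1 Mb for 256 loci. The nearest named row was protein-coding for 14332 loci and lncRNA for 910. Only genes with a row could set this distance, and 13024 of the 20572 protein-coding genes known from the ARS1.2 annotation (63.3%) had one, so a locus could lie close to a gene that the expression table did not name. Loci near the distance limit resembled each other, with medians of 1.39, 1.40 and 1.25 FPKM for the 578 loci up to 1 kb beyond the limit and 1.37, 1.42 and 1.18 FPKM for the 648 unannotated loci up to 1 kb within it.

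Most of these loci were short. Their median span, from first to last base with any introns, was 1121 nt (interquartile range 686 to 2760), and 44.9% spanned less than 1000 nt. Annotated lncRNA rows, defined as rows whose single gene ID has the class lncRNA in that annotation, had a median span of 18077 nt among the 566 with 400 nt or more, which is 16.1 times longer. Just 1.24% of them spanned less than 1000 nt and 47.2% spanned 20000 nt or more, against 4.04% of the intergenic loci. The mean span of the intergenic loci, 6903 nt, was far above their median because a small group of very long loci stood apart, up to 312898 nt. The longest was listed as 120 rows, each of which entered the mean. At the span limit, the 484 loci less than 50 nt above it had medians of 1.86, 2.35 and 1.34 FPKM, and the 459 unannotated loci at most 50 nt below it, outside the rule, had 2.15, 2.84 and 1.79 FPKM.

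The loci were of low and narrow abundance. Among loci above 0, the median was 1.33 FPKM (interquartile range 0.782 to 2.06) in the early-labelled library, 1.45 FPKM (1.07 to 2.11) in the peak-labelled one and 1.36 FPKM (0.713 to 2.21) in the late-labelled one. Annotated lncRNA rows had medians of 1.75, 1.60 and 1.97 FPKM, 1.31, 1.10 and 1.45 times those of the intergenic loci. These classes thus lay closest in the peak-labelled library, where the intergenic median was highest and the lncRNA median lowest. Protein-coding rows had medians of 6.71, 6.89 and 6.61 FPKM. The classes parted at their upper ends: 303, 139 and 331 intergenic loci reached 10 FPKM (1.82, 0.833 and 1.98%), whereas 12.9, 10.1 and 13.2% of the 567 lncRNA rows did. All intergenic loci together held 3.52, 3.77 and 3.90% of the FPKM sum. They were listed at 0 in 384, 327 and 710 cases, and 15456 (92.6%) were above 0 in every library.

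**Figure D1:**
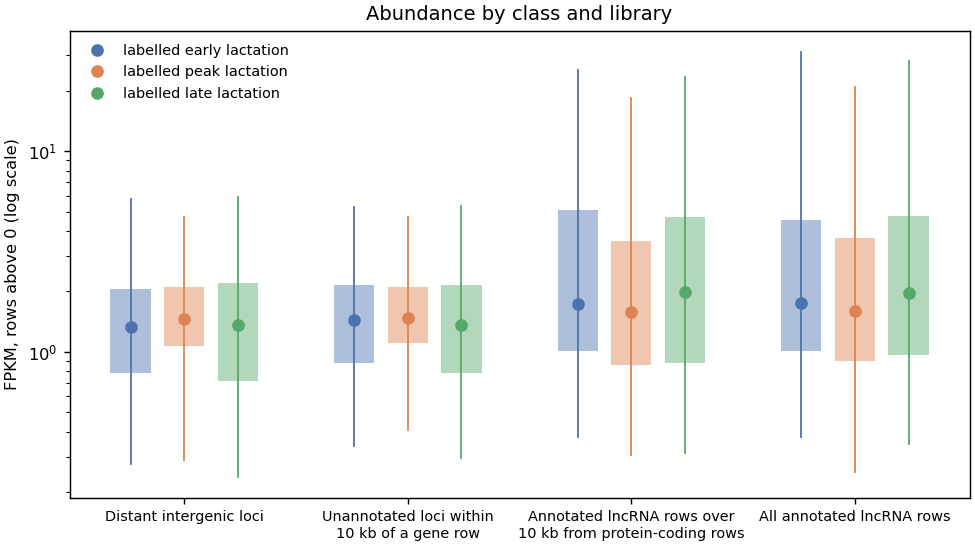
FPKM on a log scale of rows above 0 in the early-, peak- and late-labelled libraries, for 4 classes of rows. Points are medians, boxes span the 25th to 75th percentile and lines the 5th to 95th percentile over rows, not over goats. The medians of the distant intergenic loci sit at 1.33 to 1.45 FPKM, and the upper ends of both lncRNA classes reach well above theirs.

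A few loci stood far above the rest. XLOC_023379 (NW_005100774.1, 13590479 to 13595859, 5381 nt), had 212, 921 and 94.5 FPKM. It was 4.35-fold higher in the peak-labelled library than in the early-labelled one and 9.74-fold higher than in the late-labelled one. It lay 41199 bases from RPIA, a pentose phosphate pathway gene close to the immunoglobulin kappa locus in human. RPIA itself had 6.53, 7.84 and 7.81 FPKM and did not follow the locus. The leukocyte marker PTPRC was also highest in the peak-labelled library and lowest in the late-labelled one (17.6, 39.9 and 8.08 FPKM). CD68 had 3.47, 3.88 and 2.098 FPKM, and CD3E went the other way, with 0, 0 and 1.43 FPKM. The part of leukocytes in the values of XLOC_023379 was not tested.

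XLOC_018722 (NW_005100751.1, 12591166 to 12596329) had the reverse pattern, with 437, 99.9 and 431 FPKM. It was 4.38-fold lower in the peak-labelled library than in the early-labelled one, and it lay 47374 bases from C9H6orf203, which had 7.41, 4.62 and 5.93 FPKM. XLOC_001113, a 405-nt locus 11474 bases from the zinc finger gene MYNN, had 194, 255 and 157 FPKM and stayed within 2-fold across the libraries. XLOC_029524 (479 nt), which lay 204606 bases from TMEM74, had 142, 140 and 293 FPKM and was 2.06-fold higher in the late-labelled library than in the early-labelled one. TMEM74, its nearest named gene, was at or below 0.744 FPKM in every library. XLOC_017642, 67812 bases from the metalloprotease gene ADAM28, had 141, 77.0 and 104 FPKM. XLOC_016485 and XLOC_016486 were neighbours on 1 scaffold, 46452 and 47905 bases from the sterol transport gene STARD4. They had 68.0, 82.6 and 138 FPKM and 93.3, 99.98 and 152 FPKM, and both were highest in the late-labelled library.

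**Figure D2:**
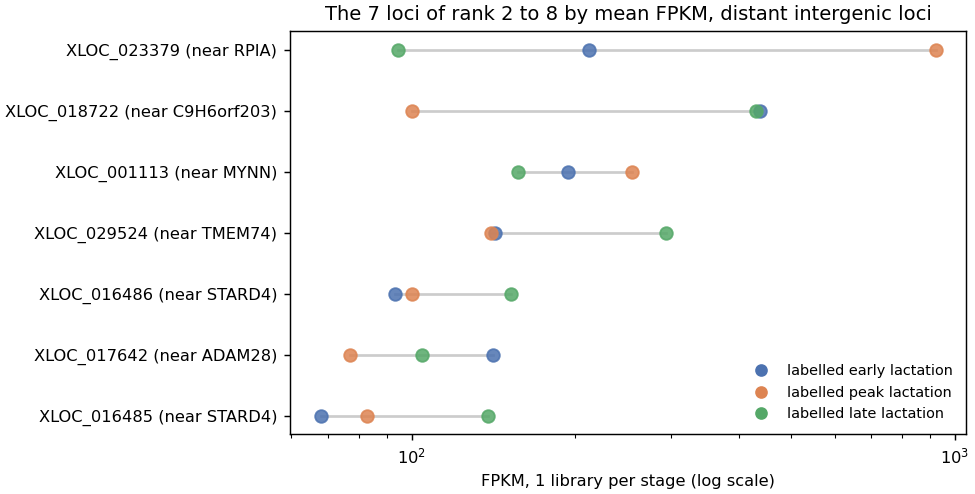
FPKM on a log scale of 7 of the 8 distant intergenic loci with the highest mean FPKM, with the nearest named gene, in the early-, peak- and late-labelled libraries. Each point is 1 library, and grey lines join the lowest and highest. XLOC_023379 spans 94.5 to 921 FPKM and is highest in the peak-labelled library, and XLOC_018722 spans 99.9 to 437 FPKM and is lowest there.

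Stage ratios asked which loci differed between lactation stages. A locus was counted as different if its FPKM was at least 2-fold apart, with 0 set to 0.001. Between the peak- and early-labelled libraries, 7368 of the 16670 loci above 0 in either library (44.2%) were at least 2-fold apart, against 35.2% of all rows. Of these, 4108 (24.6%) were higher in the peak-labelled library and 3260 (19.6%) lower, against 19.7 and 15.5% of all rows. The share was thus above that of all rows in both directions. In tissue RNA, fewer cells of a type and less RNA per cell cannot be told apart.

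Between the late- and early-labelled libraries, 5129 of 16553 loci (31.0%) were at least 2-fold apart, the smallest share of the comparisons, against 25% of all rows. Here 2215 loci (13.4%) were higher in the late-labelled library and 2914 (17.6%) higher in the early-labelled one, against 10.2 and 14.8% of all rows. Between the late- and peak-labelled libraries, 8553 of 16668 loci (51.3%) differed by this measure, against 42% of all rows. In this comparison 3616 loci (21.7%) were higher in the late-labelled library and 4937 (29.6%) higher in the peak-labelled one, against 17.1 and 24.9% of all rows. Where both libraries held 1 FPKM or more, the direction of the intergenic counts turned in these 2 comparisons, as given below. Each library enters 2 of the 3 comparisons, so their counts are linked.

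Annotated lncRNA rows were 2-fold apart about as often, in 42.7, 28.6 and 49.4% of rows. Over rows of every level, their direction leaned the other way around the peak-labelled library. Of lncRNA rows, 97 were at least 2-fold higher in the peak-labelled library than in the early-labelled one and 142 lower, with a median log2 ratio of -0.13, while the median of the intergenic loci was 0.20. Once low values were set aside, the share of rows 2-fold apart differed between the 2 classes, but the direction of the counts did not. Where both libraries held 1 FPKM or more, 14.6, 6.92 and 17.1% of the intergenic loci were at least 2-fold apart in the peak over early, late over early and late over peak ratios. Of lncRNA rows, 28.2, 9.45 and 27.2% were, and of all rows 15.9, 7.67 and 19.5%. Among such loci 465 were higher and 644 lower in the peak-labelled library than in the early-labelled one, so the direction of the counts turned with this limit. Of lncRNA rows 27 were higher and 62 lower, so by these counts both classes leaned the same way. The counts over all rows turned as those of the intergenic loci did, from 9825 higher and 7769 lower to 2341 higher and 2583 lower. For late over peak the intergenic counts at this limit were 830 higher and 379 lower. They were 60 and 20 for lncRNA rows and 3128 and 2625 for all rows. For late over early they were 307 higher and 243 lower for the intergenic loci, 17 and 14 for lncRNA rows, and 1107 and 1266 for all rows.

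Both the share and the direction went with abundance. Among the 4816 loci with a mean below 1 FPKM, 71.8% were at least 2-fold apart between the peak- and early-labelled libraries, and 52.2% were higher in the peak-labelled one. Their medians were 0.546, 1.25 and 0.462 FPKM. Among the 2994 loci with a mean of 2 to 5 FPKM, 26.0% were 2-fold apart, and 8.28% were higher in the peak-labelled library against 17.7% lower. The 871 loci with a mean of 5 to 20 FPKM leaned further, with 2.07% higher and 31.2% lower and medians of 7.78, 5.34 and 7.75 FPKM. Of the 55 loci at 20 FPKM or more, 5 were higher and 22 lower in the peak-labelled library. Low loci thus leaned to higher values in the peak-labelled library and abundant loci to lower ones. Protein-coding rows followed the same order, with 37.9% higher and 11.6% lower below 1 FPKM and 2.23% higher and 12.1% lower at 20 FPKM or more. An unannotated locus is listed only if reads assembled it, so a low locus could enter through the library where it was high. Over loci above 0, the lower quartile was 1.07 FPKM in the peak-labelled library, against 0.782 and 0.713 FPKM in the early- and late-labelled ones. The part of such entry in the lean of the low loci was not tested.

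At equal mean FPKM, how far apart the classes lay varied with abundance. For peak over early below 1 FPKM, the shares at least 2-fold apart were 71.8% (intergenic), 54.2% (lncRNA) and 49.5% (protein-coding). At a mean of 1 to 2 FPKM, 35.6% of the intergenic loci, 35.7% of the lncRNA rows and 31.5% of the protein-coding rows were at least 2-fold apart for peak over early, and 42.9, 39.3 and 42.8% for late over peak. At a mean of 5 to 20 FPKM, 33.3% of the intergenic loci, 35.8% of the lncRNA rows and 9.41% of the protein-coding rows were at least 2-fold apart between the peak- and early-labelled libraries. Between the late- and early-labelled ones, the shares were 5.97, 12.3 and 2.52%. Rows of equal FPKM need not have equal numbers of reads, since a short locus has fewer reads at the same FPKM.

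**Figure D3:**
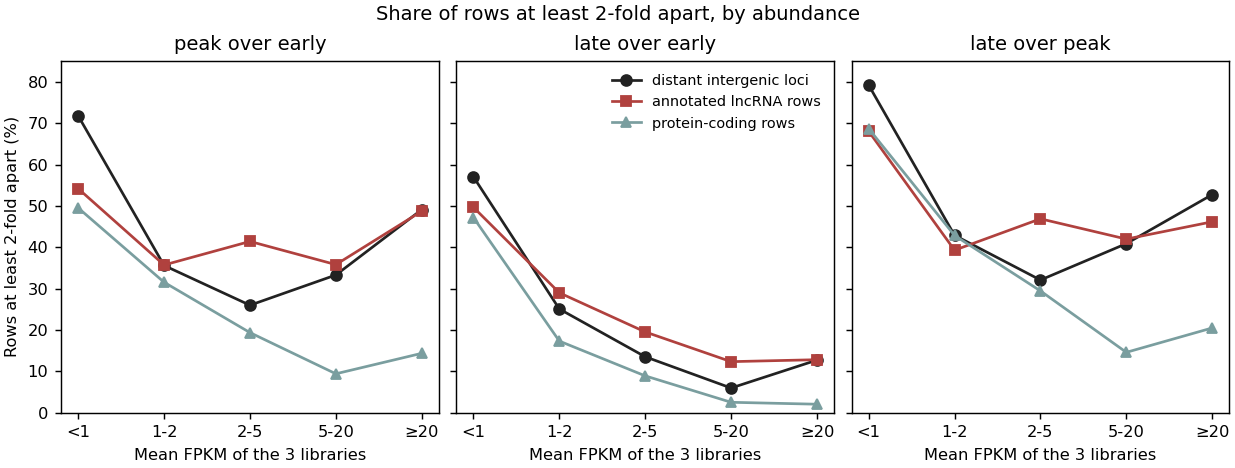
Share of rows (%) at least 2-fold apart between libraries, by mean FPKM of the 3 libraries, for distant intergenic loci, annotated lncRNA rows and protein-coding rows in the 3 comparisons. Below 1 FPKM, 71.8% of the intergenic loci are 2-fold apart between the peak- and early-labelled libraries, and at 20 FPKM or more the intergenic and lncRNA shares (49.1 and 48.7%) lie above the protein-coding share (14.4%).

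Span went with the ratios in the same manner. Loci of 400 to 600 nt had medians of 1.20, 1.71 and 1.13 FPKM, a median log2 ratio of 0.48 for peak over early, and 62.5% were at least 2-fold apart. The ratio declined with span through 0.39 at 600 to 1000 nt, 0.24 at 1000 to 2000 nt and 0.15 at 2000 to 5000 nt, and it was -0.0003 at 5000 to 20000 nt, where 20.7% were 2-fold apart. The 674 rows of 20000 nt or more broke this trend, with medians of 2.74, 1.75 and 2.68 FPKM. Their median log2 ratio was -0.47, and 53.2% were at least 2-fold apart. Many of these rows shared a start and end, so they are not 674 separate loci. For peak over early, 258 of them were lower, and 103 of the 258 were among the 120 rows of the longest locus. Unannotated loci within 10 kb of a gene row showed the same order up to 5000 nt, from 0.33 at 400 to 600 nt to 0.04 at 2000 to 5000 nt, so the relation was not particular to distant loci. Short loci, too, could be listed because of the library where they were high, and the part of this in the relation was not tested. The share of loci 2-fold apart was also larger far from genes, with 38.1% at gaps of 10 to 20 kb and 59.9% at gaps of 100 to 500 kb for peak over early.

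Across loci, the early- and late-labelled libraries ranked the intergenic loci most alike. Spearman's rho was 0.63 between these libraries, 0.29 between the early- and peak-labelled ones and 0.19 between the peak- and late-labelled ones. These are descriptions across 16692 loci that share their libraries, and neighbouring loci are not independent. Among the 926 loci with a mean of at least 5 FPKM the values were 0.71, 0.13 and 0.10. Among the 120 lncRNA rows at this limit they were 0.89, 0.49 and 0.39. Keeping rows by their mean can itself change rho, so these values cannot show how the relation depends on abundance. For all lncRNA rows the values were 0.75, 0.65 and 0.54, and for all protein-coding rows 0.97, 0.92 and 0.89. The library labelled peak held the highest value for 7992 loci (47.9%) and the lowest for 5732 (34.3%), against 43.6 and 41.2% of protein-coding rows and 35.3 and 41.8% of lncRNA rows. It was at least 2-fold above both others for 3090 loci (18.5%) and at least 2-fold below both for 2390 (14.3%), while these shares were 10.9 and 18.3% for lncRNA rows and 9.46 and 5.48% for protein-coding rows.

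The loci were not scattered singly. When loci with gaps of at most 10 kb and no gene row between them were joined, the 16692 loci formed 3478 runs, of which 1397 held 1 locus. Runs of 10 or more loci numbered 432 and held 8710 loci (52.2%). The median gap from a locus to the next was 869 bases. Loci of a run differed less among themselves than loci at large. In runs of 10 or more, over loci above 0 in both libraries, the SD of the log2 ratio of peak over early was 1.38 over all of them and 0.81 within runs, and for late over peak it was 1.60 against 0.80. For late over early it was 1.001 against 0.82. Loci of 1 run may be pieces of 1 transcript, so their counts are not counts of independent transcripts. With 1 locus kept per run, 47.9, 36.4 and 53.6% were at least 2-fold apart in the 3 comparisons.

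The run with most loci had 143, over 375881 bases of NW_005100811.1 (9675976 to 10051856), between LOC102168556 and ARMC1. Its loci had medians of 3.57, 0.956 and 4.71 FPKM in the early-, peak- and late-labelled libraries. Between the peak- and early-labelled ones, 0 were at least 2-fold higher and 124 lower, and between the late- and peak-labelled ones 130 were higher and 1 lower. A total of 120 of its rows were listed with the same start and end (9738959 to 10051856, 312898 nt), the longest span in the class. XLOC_029239 of this locus had 8.18, 1.17 and 22.1 FPKM and was 19.0-fold higher in the late-labelled library than in the peak-labelled one, the largest such ratio with at least 1 FPKM in both. XLOC_029146 of the same locus had 1.80, 1.01 and 8.94 FPKM. XLOC_029210, also there, had 1.11 and 12.1 FPKM in the early- and late-labelled libraries and was listed at 0 in the peak-labelled one, and XLOC_029234 was above 0 only in the early-labelled one (4.66 FPKM). Among the rows with the longest span, XLOC_029132, XLOC_029133 and XLOC_029134 had 9.499, 4.33 and 5.57 FPKM in the early-labelled library, and 2.55, 0.661 and 0 FPKM in the peak-labelled one. Rows with 1 listed locus thus had unequal values, and how reads were divided among them is not given in the sources used here.

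The other large runs included both patterns. The run of 92 loci between KCNQ5, a potassium channel gene, and RIMS1, a gene of synaptic vesicle release (NW_005100806.1, 610531 to 994080), had medians of 0.906, 2.07 and 0.434 FPKM. Of its loci, 70 were at least 2-fold higher and 0 lower in the peak-labelled library than in the early-labelled one, and 90 were lower in the late-labelled one than in the peak-labelled one. The run of 91 loci beside WWOX had medians of 1.47, 1.13 and 1.54 FPKM. Most of its loci stayed within 2-fold for peak over early, with 4 higher and 17 lower. Over all distant intergenic loci, 24.6% were higher and 19.6% lower in this comparison. A run of 70 loci beside FAM49B, which encodes a regulator of the actin cytoskeleton (NW_005100810.1, 12573582 to 12776687), was the most abundant of the large runs, with medians of 16.4, 4.10 and 20.01 FPKM. In it 66 loci were at least 2-fold lower in the peak-labelled library than in the early-labelled one, and all 70 were at least 2-fold higher in the late-labelled one than in the peak-labelled one. FAM49B, 185410 bases away, had 4.75, 9.08 and 4.64 FPKM and so went the other way. XLOC_028437 of this run had 27.6, 2.31 and 15.8 FPKM and was 11.95-fold lower in the peak-labelled library than in the early-labelled one. The run of 59 loci beside PIK3R1, a regulatory subunit of phosphoinositide 3-kinase, had medians of 1.56, 0.416 and 1.75 FPKM, with 55 lower for peak over early.

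**Figure D4:**
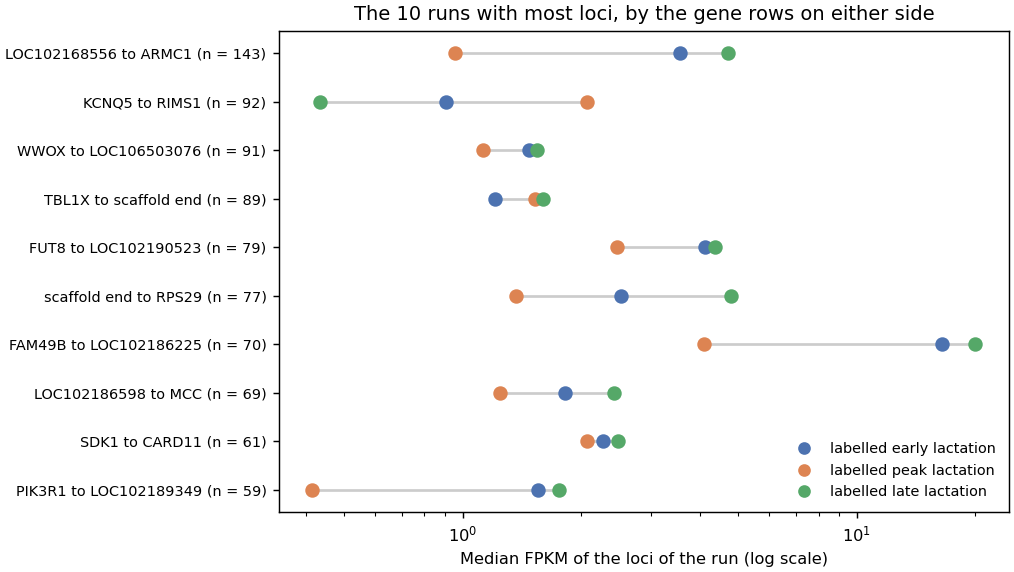
Median FPKM (log scale) of the loci in each of the 10 runs with most distant intergenic loci, in the early-, peak- and late-labelled libraries, named by the gene rows on either side. n is the number of loci, which may be pieces of 1 transcript. The run beside FAM49B drops from 16.4 to 4.10 FPKM in the peak-labelled library, and the run between KCNQ5 and RIMS1 has its highest median (2.07 FPKM) there.

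Several loci were listed as many rows. In all, 769 rows shared a start and end with another row, at 136 loci. On NW_005100759.1 (18275197 to 18344857), 47 rows shared 1 locus 14390 bases from DAD1, a subunit of the oligosaccharyltransferase that neighbours the T cell receptor alpha and delta genes in human. Their medians were 3.50, 6.73 and 0.881 FPKM and their sums 170, 332 and 43.9 FPKM. For peak over early 25 were at least 2-fold higher, and for late over peak 46 were lower, while DAD1 had 144, 95.8 and 170 FPKM. The leukocyte marker PTPRC had 17.6, 39.9 and 8.08 FPKM, the same order as the rows, CD68 had 3.47, 3.88 and 2.098 FPKM, and CD3E, which marks T cells, was listed at 0 in the early- and peak-labelled libraries and at 1.43 FPKM in the late-labelled one. The part of leukocytes in this result was not tested.

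Some loci were nearly confined to part of the libraries. A locus of 23 rows between PROX1, a homeobox transcription factor gene, and RPS6KC1 (NW_005100848.1, 15913431 to 16031307) summed to 7.12, 0.162 and 65.8 FPKM and was listed at 0 in 21 rows in the peak-labelled library. Over the class, 24 loci were above 0 only in the early-labelled library, 139 only in the peak-labelled one and 22 only in the late-labelled one. These are 0.144, 0.833 and 0.132% of the loci, against 0.705, 0.882 and 1.23% of lncRNA rows (4, 5 and 7 rows). Among protein-coding rows the shares were 0.067, 0.156 and 0.030%. Such loci were thus no more frequent here than among annotated lncRNA rows, and more frequent than among protein-coding rows. Among the highest of them were XLOC_017268 (6.35 FPKM, near ZFAND5) in the early-labelled library, XLOC_035115 (4.09 FPKM, near VAC14) in the peak-labelled one, and XLOC_033247 (3.74 FPKM, in the PROX1 to RPS6KC1 locus) and XLOC_047433 (3.17 FPKM, near PTPRE) in the late-labelled one. These levels were low, and whether a value listed at 0 means no reads or a failed estimate was not tested. Such loci may have been listed because of the library where they were above 0, and this was not tested either.

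Beside SLC34A2, which encodes a sodium-phosphate cotransporter, loci of 1 run were highest in the early-labelled library. XLOC_012327 (NW_005100696.1, 17280841 to 17281719) had 25.9, 0.329 and 3.71 FPKM, and its level in the early-labelled library was 6.96-fold that in the late-labelled library. XLOC_012333 had 20.8, 0.852 and 3.26 FPKM and XLOC_012338 15.6, 0.646 and 2.27 FPKM. These were the largest early over late ratios with at least 1 FPKM in both libraries. The row nearest to XLOC_012327, 10265 bases away, had a gene ID without a matched symbol and 4.10, 0.438 and 0.547 FPKM, and like the loci it was far lower in the late-labelled library than in the early-labelled one. SLC34A2 lay 14919 bases from XLOC_012338 and had 162, 16.6 and 96.5 FPKM, so the gene was also lowest in the peak-labelled library, but its late value was closer to its early value than those of the loci were.

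Beside MOCS1, a gene of molybdenum cofactor synthesis, the order was different. XLOC_043525 (NW_005100916.1, 11572709 to 11577047) had 1.67, 0.557 and 15.8 FPKM and XLOC_043526 (11577476 to 11577906) 3.25, 0.226 and 28.1 FPKM. They were 9.43-fold and 8.67-fold higher in the late-labelled library than in the early-labelled one. MOCS1 had 45.9, 13.5 and 62.9 FPKM and also its lowest level in the peak-labelled library. Of the loci highest in the peak-labelled library, XLOC_054452 (NW_005104818.1, 52721 to 53524) had 1.77, 13.8 and 0.756 FPKM, a 7.82-fold higher level there than in the early-labelled one. XLOC_007962, 62366 bases from the oxysterol-binding protein gene OSBPL3, had 1.64, 11.2 and 2.49 FPKM. OSBPL3 had 2.48, 8.83 and 2.20 FPKM, in the same order of peak against the others.

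XLOC_011194 (NW_005100672.1, 2671870 to 2679151) had 2.96, 19.0 and 1.72 FPKM and was 11.1-fold higher in the peak-labelled library than in the late-labelled one. Its neighbour GABARAPL1, an autophagy gene 11207 bases away, had 79.0, 40.9 and 77.8 FPKM and thus the opposite order. XLOC_004690, a 467-nt locus 10711 bases from the protein-coding LOC102179822, had 5.46, 10.1 and 1.08 FPKM and was 9.33-fold higher in the peak-labelled library than in the late-labelled one. LOC102179822 had 4.35, 10.6 and 1.65 FPKM, the same order. Among the largest early over peak ratios, XLOC_040265 (NW_005100893.1, 14602904 to 14604143), between LOC106503333 and the homeobox gene IRX1, had 17.0, 1.31 and 9.97 FPKM. XLOC_033585, 29405 bases from LOC106503013, had 11.5, 1.03 and 10.8 FPKM. LOC106503013, an annotated lncRNA, had 24.4, 6.75 and 30.7 FPKM and was likewise lowest in the peak-labelled library.

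Another 8 loci exceeded 50 FPKM on average and were chosen after their values were seen. Of these, XLOC_029605 (75.6, 51.95 and 72.9 FPKM), XLOC_011871 (60.3, 47.2 and 72.7 FPKM), XLOC_027787 (57.6, 52.7 and 56.1 FPKM) and XLOC_011107 (61.5, 43.7 and 45.03 FPKM) stayed within 2-fold between libraries. The other 4 lay beside the potassium channel gene KCNJ15. XLOC_002137 (NW_005100612.1, 13074209 to 13074708) had 125, 19.4 and 77.3 FPKM. XLOC_002138 and XLOC_002139 shared 1 locus and had 88.3, 18.8 and 75.2 FPKM and 95.5, 16.2 and 86.8 FPKM. XLOC_002134 had 80.7, 8.26 and 68.3 FPKM, and KCNJ15 had 28.7, 7.38 and 26.9 FPKM. These 4 loci and the gene were lowest in the peak-labelled library, and per length the loci were above the gene in each library. At the other end, the locus farthest from any named row, XLOC_051119, lay 5463834 bases from CDR1 and had 2.12, 1.77 and 1.70 FPKM. XLOC_031946 and XLOC_031947, more than 4 Mb from KCTD3, had 8.98, 4.24 and 9.73 FPKM and 4.12, 2.03 and 4.35 FPKM.

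The ratios of loci went in part with those of the nearest protein-coding row, and beyond 100 kb they did not by this measure. For 6195 loci, both the locus and its nearest protein-coding row (1519 genes) reached 1 FPKM in both libraries, and the log2 ratios of locus and gene for peak over early had a Spearman's rho of 0.38. For the 289 loci whose gene was at least 2-fold higher in the peak-labelled library, the median ratio of the loci was 1.53, and for the 432 whose gene was at least 2-fold lower it was 0.693. For the 5474 whose gene was within 2-fold it was 1.04. At gaps of 10 to 20 kb rho was 0.37, and for the 970 loci with gaps over 100 kb, beside 183 genes, it was -0.01. For late over peak rho was 0.41 over all and -0.02 at gaps over 100 kb (158 genes), and for late over early it was 0.15 over all. The values beyond 100 kb thus rest on far fewer genes. These values are descriptions across loci that share libraries and neighbours.

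Loci beside genes of milk synthesis and mammary regulation were described from a list of 61 genes, of which 53 had a row and 26 had distant intergenic loci as next neighbours on either side. CSN2, CSN1S2, AGPAT6, SREBF1, STAT5A, STAT5B, CEBPB and LIF had no row under their symbols. Beside 10 genes of milk protein and milk fat synthesis or secretion lay 54 loci in 18 runs, at a median distance of 21687 bases. Their medians were 2.19, 0.657 and 3.49 FPKM. For peak over early 2 were at least 2-fold higher and 46 lower, with a median log2 ratio of -1.96. For late over early 10 were higher and 5 lower, and for late over peak 46 were higher and 1 lower. Over all distant intergenic loci, 24.6% were higher and 19.6% lower for peak over early, and the median log2 ratio was 0.20. The shares higher and lower were 13.4 and 17.6% for late over early and 21.7 and 29.6% for late over peak. Taken by run, 13 of the 18 runs had a median at least 2-fold lower in the peak-labelled library and 1 a median at least 2-fold higher.

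GLYCAM1, which encodes a mucin-like milk glycoprotein, had 15 neighbouring loci, all at least 2-fold lower in the peak-labelled library than in the early-labelled one, with medians of 1.77, 0.461 and 3.42 FPKM. GLYCAM1 itself had 6037, 2085 and 7237 FPKM. Beside XDH, the xanthine dehydrogenase gene needed for milk fat droplet secretion, 10 of 11 loci were lower, with medians of 3.85, 1.15 and 4.24 FPKM against 1558, 509 and 2148 FPKM for the gene. Beside ACACA, the acetyl-CoA carboxylase of fatty acid synthesis, all 7 loci were lower (9.30, 2.43 and 7.55 FPKM). XLOC_009256, 10624 bases from LALBA (NW_005100666.1, 20608871 to 20612558), had 27.3, 4.72 and 29.8 FPKM, whereas LALBA was listed at 0 in the late-labelled library. Beside the fatty acid binding protein gene FABP3, 4 of 6 loci were lower, and beside LPIN1, a phosphatidate phosphatase, 5 of 6 were. The locus beside CSN1S1 went the other way, with 0.510, 1.19 and 1.16 FPKM, while CSN1S1 had 25057, 12017 and 39445 FPKM.

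The secretory epithelium markers, of which all 9 were found, summed to 211250, 60704 and 158094 FPKM in the early-, peak- and late-labelled libraries, the same dip in the peak-labelled library as these loci. KRT8 and KRT18 of the list went the other way, with 126, 196 and 154 FPKM and 21.0, 32.0 and 19.5 FPKM. The adipocyte markers ADIPOQ and PLIN1 summed to 16.4, 4.93 and 6.16 FPKM, and the endothelial markers PECAM1 and VWF to 78.6, 74.1 and 77.7 FPKM. DES alone was found of 3 muscle markers, with 5.50, 17.8 and 10.3 FPKM, and neither hemoglobin symbol was found. The part of cell composition in the values of the neighbouring loci was not tested.

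Beside 16 regulators of mammary development lay 226 loci in 28 runs, without a common direction. "Beside" here means that no other named row lay between, and 123 of these loci were more than 100 kb from the gene. Their medians were 1.69, 1.86 and 1.36 FPKM, and for peak over early 53 were at least 2-fold higher and 35 lower. For late over early 13 were higher and 54 lower, and for late over peak 28 were higher and 70 lower. Over all distant intergenic loci, the shares higher and lower were 24.6 and 19.6%, 13.4 and 17.6%, and 21.7 and 29.6% in these comparisons. RUNX1, a transcription factor of blood and epithelial lineages, had 50 of these loci, 31 of them more than 100 kb away, with medians of 1.08, 2.24 and 0.368 FPKM. Of them 31 were higher and 1 lower for peak over early, 32 were lower for late over early, and 48 were lower for late over peak. Most of the regulator loci counted in these directions thus lay beside this 1 gene. RUNX1 had 5.45, 9.02 and 2.94 FPKM, the same order as its neighbours. Next to GATA3, a luminal transcription factor gene, lay 13 loci with no other named row between, but all were at least 2574131 bases away. Of these, 9 were higher for peak over early (1.15, 2.80 and 2.02 FPKM), whereas GATA3 had 14.99, 10.4 and 14.6 FPKM.

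Loci beside some other regulators resembled those beside the milk genes, and loci beside others did not. Beside ELF5, a transcription factor of the alveolar lineage, lay 2 rows at the same distance of 51712 bases. Both were at least 2-fold lower in the peak-labelled library than in the early-labelled one (2.22, 0.552 and 1.499 FPKM), and ELF5 had 879, 244 and 875 FPKM. Beside NFIB 6 of 9 and beside the growth factor receptor gene ERBB4 7 of 10 were lower, the latter all at least 426967 bases from the gene. Smaller parts were lower beside MYC (4 of 26), PTHLH (3 of 15) and SOX9 (2 of 29), against 19.6% of all distant intergenic loci. The 36 loci beside the estrogen receptor gene ESR1 had nearly level medians of 1.29, 1.25 and 1.29 FPKM. XLOC_030112, 14122 bases from the progesterone receptor gene PGR, had 3.39, 10.7 and 3.28 FPKM, and PGR had 5.66, 15.4 and 9.35 FPKM, so both were highest in the peak-labelled library.

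**Figure D5:**
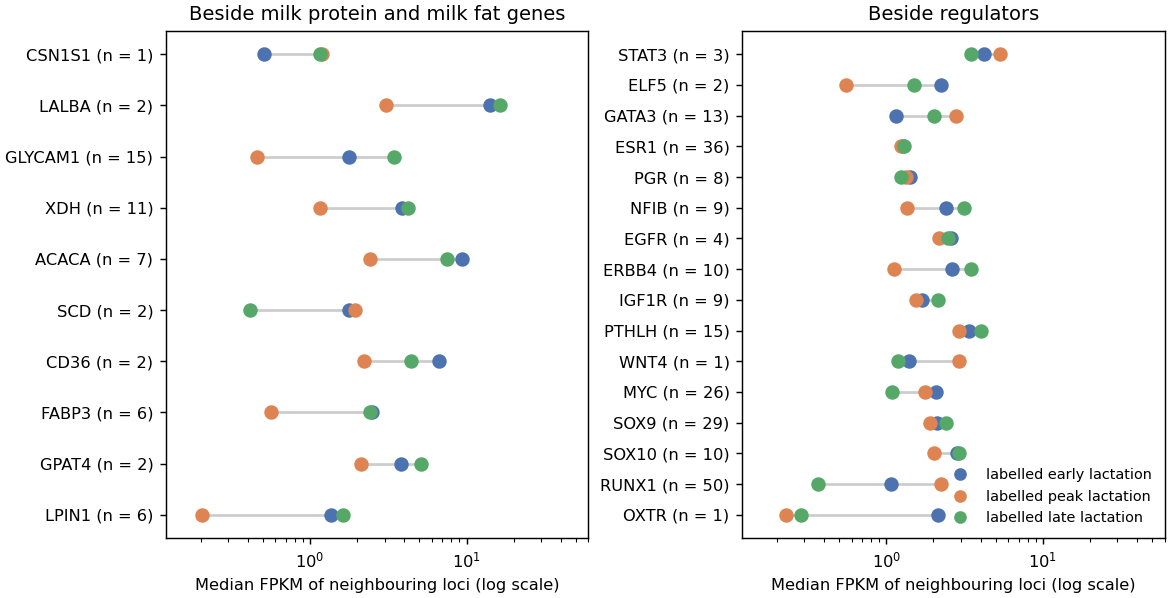
Median FPKM (log scale) of the distant intergenic loci next to each gene of the mammary list, in the early-, peak- and late-labelled libraries. The left panel shows loci beside genes of milk protein and milk fat synthesis or secretion and the right panel loci beside regulators, and n is the number of loci. The median in the peak-labelled library is the lowest for 8 of 10 genes on the left, and on the right it is the highest beside RUNX1 (2.24 FPKM) and GATA3 (2.80 FPKM).

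A further 1952 unannotated loci of 400 nt or more lay on 1635 scaffolds without any row with a gene ID, so that their distance to genes was unknown, and they were kept apart. They were short, with a median span of 678 nt, and had medians of 1.62, 1.88 and 1.70 FPKM. For peak over early 490 of 1950 (25.1%) were at least 2-fold higher and 327 (16.8%) lower, shares close to the 24.6 and 19.6% of the distant intergenic loci.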

How the data were processed

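RNA was extracted from mammary gland of 5 goats per stage, pooled, and made into stranded libraries, 1 for each stage. Per the labels and methods, the authors trimmed reads with Trimmomatic, mapped them with TopHat 2.0.9, assembled and merged transcripts with Cufflinks 2.1.1 and Cuffmerge, and deposited FPKM values from Cuffdiff, with no counts. Of the deposited FPKM values, 40.3 to 46.1% per library had 7 significant digits and 95.7 to 99.3% of these ended in 5, as means of 2 numbers of 6 digits do. Whether values were averaged is not given in the sources used here. Columns were assigned to stages by the labels, and 0 columns of per-sample values were left out.

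Gaps were counted between nearest ends, with positions as listed, overlap being 0. Symbols and classes of gene IDs, and nothing else, came from the ARS1.2 annotation (14403 of 15274 rows with a single ID). For ratios, an FPKM of 0 was set to 0.001. Since no stage had a second library, no test was run and no replicate could be left out. Members and lists, including the 61 mammary genes, were chosen with earlier results of these data known. Loci were named for the 8 highest means, the 3 largest ratios per comparison and direction with at least 1 FPKM in both libraries, the 2 highest found in only 1 library, the 3 farthest, the 3 longest, the 3 largest runs, and neighbours of the mammary genes. Loci of at least 50 FPKM on average, runs and shared loci beyond this rule were chosen after their values were seen. Of the loci this rule names, 2 are not reported here. Alternatives changed the distance, span, fold, pseudocount, low-value filter, lncRNA set, centring and the order of the columns labelled peak and late. Scripts were tested on simulated data. Tables were computed with pandas 2.3.3 and numpy 2.4.6 in Python 3.11.15, rank correlations with scipy 1.17.1 and plots with matplotlib 3.10.9.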

Additional observations from a re-analysis of the deposited data

How the results depend on the processing

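No paired analysis was possible because the goats of a stage were pooled into 1 library, and no replicate could be left out. The class held 6830 loci at more than 50 kb from gene rows and 9190 at 1000 nt or more. The ratio of median FPKM of lncRNA rows to intergenic loci (1.31, 1.10 and 1.45 for early, peak and late) stayed above 1 under every alternative run. It was 1.24, 1.07 and 1.42 with rows at 0 included, 1.82, 1.43 and 1.78 with lncRNA rows summed per gene ID, and 1.30, 1.08 and 1.46 for lncRNA rows more than 10 kb from protein-coding rows. It was 1.35, 1.13 and 1.43 for loci beyond 50 kb, 1.18, 1.04 and 1.27 at 1000 nt or more, and 1.32 and 1.13 in early and peak for rows of at least 0.1 FPKM. The span ratio was 16.3 beyond 50 kb, 7.54 at 1000 nt or more and 12.6 for lncRNA rows distant from protein-coding rows. Counts of loci 2-fold apart (peak over early, late over early, late over peak) became 3115, 2047 and 4167 at 4-fold, 2658, 1198 and 3788 with 1 FPKM added, and 3651, 2356 and 4110 beyond 50 kb. With alternatives chosen after seeing the data they were 1664, 1246 and 1856 with 1 locus per run and 3017, 1638 and 3816 at 1000 nt or more. With 1 FPKM added, the share of these loci that were higher moved from 55.8 to 47.2% for peak over early and from 43.2 to 54.3% for late over early. At 1000 nt or more the lean for peak over early was also lost, with 1496 higher and 1521 lower (49.6%). With the columns labelled peak and late exchanged, by construction, the median log2 ratios were -0.055, 0.20 and 0.21 in place of 0.20, -0.055 and -0.21. Low FPKM, an unknown number of reads per locus and runs that may be 1 transcript limit every count of loci.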
